A study of Mus musculus with 2 samples.

Results

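NF-kappaB is a family of dimeric transcription factors that is held in the cytoplasm of resting cells by inhibitor proteins of the IkappaB family. Signals from tumour necrosis factor receptors, interleukin-1 receptors and Toll-like receptors activate a kinase complex that marks the inhibitor for degradation, after which the dimer enters the nucleus. Its targets include cytokines and enzymes of inflammation, and also its own inhibitors, so that the response carries its own brakes. The 10 genes described here belong to that feedback and target group. They are the inhibitor gene Nfkbia, the nuclear IkappaB gene Nfkbiz, the subunit genes Nfkb1 and Nfkb2 and the brake genes Tnfaip3 and Zc3h12a. The target genes Tnf, Tnfaip2, Ptgs2 and Sod2 complete the group. The 10 genes were chosen by name, with earlier results of these data known. All 10 were found among the 11691 genes of the deposited table.

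Blood myeloid cells of C57BL/6 mice, sorted as CD11b+ Ly6G- and CD11b+ Ly6G+ cells, were collected 24 h after the proximal middle cerebral artery had been transiently occluded, which models ischemic stroke. Each age had 1 droplet single-cell library, the young one from animals 2 to 4 months old and the aged one from animals 18 to 24 months old. Both groups had the occlusion, so no level of an uninjured mouse is available here, and whether mice were pooled is not given in the sources used here. The comparison asks how the transcripts of these genes differed between the young and the aged library after stroke, and no difference has a replicate check. Cell populations are the authors' labels.

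After removal of likely doublets, 1133 young and 2628 aged neutrophils and 540 young and 932 aged monocytes were kept. Their summed depths were 2026635 and 5481028 UMIs (unique molecular identifiers, counted transcript molecules) in neutrophils and 3623687 and 6406772 in monocytes. The median neutrophil held 1629 young and 1900 aged UMIs, and the median monocyte 6606.5 and 6401.5. The 7 neutrophil markers summed to 332761 and 420232 CPM in young and aged neutrophils against 23514 and 33732 CPM in monocytes, and the 7 monocyte markers to 6453 and 6824 CPM in monocytes against 661 and 614 CPM in neutrophils. Levels are given as CPM, in which the UMIs of a gene are divided by all UMIs of the population in that library. All intervals are 95% and cover counting error only. Fewer cells that make a transcript and less transcript per cell cannot be told apart in a summed level. The 2 libraries shared 12 cell barcodes.

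The promoters are shown first because several of these genes are known as direct NF-kappaB targets. RefSeq windows on GRCm38.p6, from 250 bases before to 50 after each start site, were available for 8 of the 10 genes. The NF-kappaB consensus motif, searched by that name on both strands, was in a window of 5 of these 8, against 9.55% of 27025 genes. The match is a description of the letters and does not show binding. The 250 bases before the start of Nfkbia lie at chr12:55492648-55492897 on the minus strand, with the motif in capitals.

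Nfkbia: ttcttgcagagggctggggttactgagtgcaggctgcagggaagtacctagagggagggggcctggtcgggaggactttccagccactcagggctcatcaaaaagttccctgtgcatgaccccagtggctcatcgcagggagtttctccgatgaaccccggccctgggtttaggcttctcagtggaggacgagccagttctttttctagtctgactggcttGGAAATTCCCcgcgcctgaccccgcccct

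For the other 4 genes with a match, the 30 bases around it are shown, again with the motif in capitals. Those of Nfkb2, Tnfaip3, Tnfaip2 and Sod2 lie at chr19:46304688-46304717 (plus strand), chr10:19015411-19015440 (minus), chr12:111442627-111442656 (plus) and chr17:13007746-13007775 (plus). In Nfkb2 a pair of matches overlap, so its run of capitals is longer than the motif. In GENCODE M21 these 4 genes start further upstream than the start sites used here, so all 4 stretches lie inside the gene body. Of the 250 bases before the start, 250 in Nfkb2, 192 in Tnfaip2, 110 in Tnfaip3 and 22 in Sod2 lie in an annotated exon. In Nfkbia 0 do.
Nfkb2: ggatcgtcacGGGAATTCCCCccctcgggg
Tnfaip3: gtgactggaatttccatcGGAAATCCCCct
Tnfaip2: gactattttaGGAGGGCCCCtccagggtcg
Sod2: cggggcggacGGGGTTCCCCgaggcggggc
The motif began 29 bases before the start in Nfkbia (-29), at -39 and -38 in the Nfkb2 stretch, at -12 in that of Tnfaip3, at -24 in Tnfaip2 and at -83 in Sod2. A further match of Tnfaip3 began at -125 and one of Nfkb2 at -11 of the same windows. Other windows of Nfkb2 held matches at -236 and at -225. The match at -225 is the same site as one at 11 after the start of an overlapping window. The windows of Ptgs2, Zc3h12a and Tnf held no match of these letters.

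In neutrophils Ptgs2 stood furthest below its young level. Ptgs2 encodes cyclooxygenase-2, the inducible enzyme that starts prostaglandin synthesis, and lies at chr1:150100031-150108227 (GENCODE M21, GRCm38). It had 49 UMIs in young and 24 in aged neutrophils, although the aged library held the larger number of neutrophils. The level was 24.2 CPM (17.9 to 32.0) among young and 4.38 CPM (2.81 to 6.52) among aged cells, giving a ratio of 0.181 (0.106 to 0.301). A UMI of Ptgs2 was found in 3.62% of young neutrophils (41 cells, 2.61% to 4.88%) and 0.723% of aged neutrophils (19 cells, 0.436% to 1.13%). With every cell thinned at random to 500 UMIs these shares were 1.24% (0.677% to 2.06%) and 0.0761% (0.00922% to 0.275%). None of 84 young and none of 99 aged NK and B cells, at median depths of 2077.5 and 2654 UMIs, held a UMI of Ptgs2, with Clopper-Pearson upper bounds of 4.30% and 3.66%. These bounds lie above the neutrophil shares, and so few cells cannot set them apart from free RNA. The aged level stayed at least 1.5-fold lower in 9 of 9 scalings and cell choices, at ratios from 0.0575 to 0.225. The 5 cells with most Ptgs2 UMIs held 22.4% of them among young and 41.7% among aged cells.

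Nfkbia, which encodes IkappaB-alpha, the inhibitor that NF-kappaB induces against itself, lies at chr12:55489410-55492647 and was within 1.5-fold between the ages. In neutrophils it stood at 464 CPM (435 to 494) among young and 494 CPM (476 to 513) among aged cells, giving a ratio of 1.07 (0.989 to 1.15). With TMM scaling, which sets the typical gene near equal, its neutrophil ratio was 1.32 (1.23 to 1.43), an interval above 1. Whether Nfkbia was higher in aged neutrophils therefore depends on the scaling. Its UMIs were found in 49.6% of young and 58.0% of aged neutrophils, and in 18.7% (16.5% to 21.1%) and 22.0% (20.4% to 23.6%) of cells thinned to 500 UMIs. NK and B cells also make it, at thinned shares of 17.9% and 12.1%.

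Nfkbiz encodes IkappaB-zeta, a nuclear IkappaB protein that helps switch on secondary targets, and lies at chr16:55811375-55838899. Its neutrophil level was 94.2 CPM (81.4 to 109) among young and 59.3 CPM (53.0 to 66.1) among aged cells, giving a ratio of 0.629 (0.525 to 0.756). Tnfaip2, a gene first known for its induction by tumour necrosis factor (chr12:111442469-111455018), stood at 345 CPM (320 to 372) and 216 CPM (204 to 229), a ratio of 0.625 (0.569 to 0.688). Thinned shares of neutrophils with a UMI were 4.77% and 3.04% for Nfkbiz and 16.2% and 10.7% for Tnfaip2. In young NK and B cells they were 1.19% (0.0301% to 6.46%) for each, and in aged ones 0% (upper bound 3.66%). For Nfkbiz these bounds lie above the neutrophil shares, and so few cells cannot set them apart from free RNA.

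The subunit genes were sparser in neutrophils. Nfkb1, which encodes the p105 precursor of p50, had 80 young and 163 aged UMIs, at 39.5 CPM and 29.7 CPM, with a ratio of 0.753 (0.573 to 0.997). The Nfkb1 ratio was 0.935 (0.711 to 1.24) with TMM scaling and 1.54 in cells thinned to 500 UMIs, so its direction depends on the setting. Nfkb2, which encodes the p100 precursor of p52, had 20 and 31 UMIs and a ratio of 0.573 (0.316 to 1.06), an interval that includes 1. The gene body of Nfkb2 overlaps Psd on the other strand and that of Nfkb1 overlaps Gm43430 on the same strand, and how such reads were assigned is not given in the sources used here.

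Zc3h12a encodes regnase-1, an endonuclease that degrades inflammatory transcripts, and had 29 young and 45 aged neutrophil UMIs with a ratio of 0.574 (0.352 to 0.949). Sod2, the superoxide dismutase of mitochondria (chr17:13006846-13040063), had 34 and 54 UMIs with a ratio of 0.587 (0.375 to 0.93). Tnf, the cytokine gene, had 14 and 29 UMIs, and Tnfaip3, which encodes the ubiquitin-editing enzyme A20, had 8 and 15. These last 2 were under the minimum of 50 UMIs over both libraries, and their ratios of 0.766 (0.392 to 1.57) and 0.693 (0.276 to 1.89) leave the direction undetermined at this depth.

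Of the 8 genes with at least 50 neutrophil UMIs, 6 were at least 1.5-fold lower in the aged library, 0 were higher and 2 lay between. Among all 4746 neutrophil genes with that depth, 20.3% were at least 1.5-fold lower and 3.81% higher. The median log2 ratio was -0.72 over the 8 genes and -0.24 over all genes. With TMM scaling 1 of the 8 genes, Ptgs2, was at least 1.5-fold lower, at 0.225 (0.132 to 0.374), while of all genes 6.97% were lower and 10.4% higher. The other 5 then had ratios from 0.712 to 0.781. The interval stayed below 1 for Nfkbiz (0.651 to 0.939) and Tnfaip2 (0.707 to 0.854), and included 1 for Nfkb2, Zc3h12a and Sod2. With the abundant neutrophil transcripts S100a8, S100a9 and Retnlg left out of the total, 3 of the 8 genes were at least 1.5-fold lower, against 10% of all genes.

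**Figure D1:**
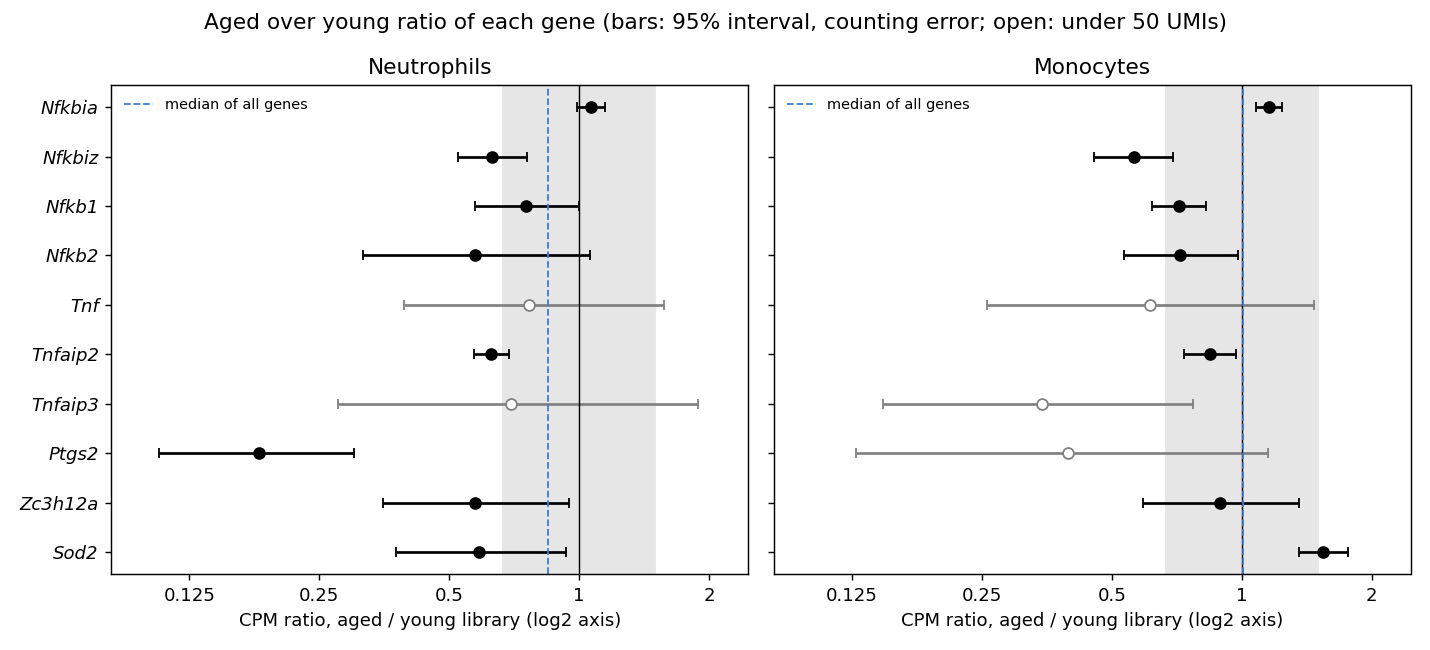
Ratio of the aged over the young CPM level on a log2 axis for each of the 10 genes in neutrophils (left) and monocytes (right). Bars are 95% counting intervals, open grey points have fewer than 50 UMIs, the dashed line is the median of all genes and the shaded band marks ratios within 1.5-fold. In neutrophils Ptgs2 lies furthest left at 0.181, and Sod2 lies at 0.587 in neutrophils and at 1.55 in monocytes.

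**Figure D2:**
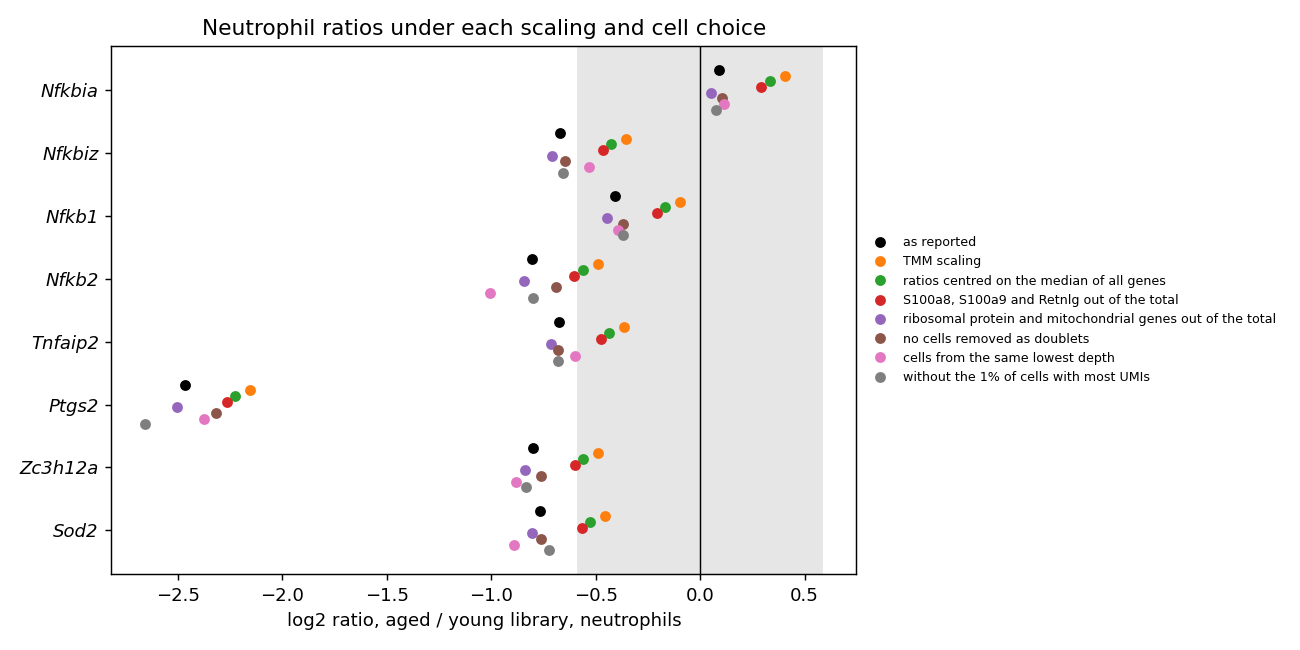
Log2 ratio of aged over young in neutrophils for the 8 genes with at least 50 UMIs, under the reported scaling (black) and 7 other scalings or choices of cells (colours), with ratios within 1.5-fold shaded. Ptgs2 stays well left of the band in each, while TMM scaling moves the other 5 lower genes into the band.

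Set against Nfkbia in the same cells, which removes the total from the measure, Tnfaip2 stood at 74.5 (67.4 to 82.2) UMIs per 100 Nfkbia UMIs in young and 43.7 (40.8 to 46.8) in aged neutrophils. Ptgs2 stood at 5.21 (3.83 to 6.95) and 0.886 (0.567 to 1.32). Nfkbia was chosen as the reference after the values were seen and has the highest neutrophil ratio of the 10 genes, so the lower values in the aged library follow from that choice and support nothing further.

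In monocytes the genes lay on both sides of 1. Sod2 stood at 88.3 CPM (78.9 to 98.5) among young and 137 CPM (128 to 146) among aged cells, giving a ratio of 1.55 (1.36 to 1.76). Its UMIs were in 41.1% of young and 59.9% of aged monocytes, and in 4.44% (2.87% to 6.54%) and 7.40% (5.81% to 9.28%) after thinning. The ratio was at least 1.5 in 8 of 9 settings and 1.48 with ribosomal protein and mitochondrial genes out of the total.

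Nfkbiz was lower in aged monocytes, at 50.8 CPM (43.7 to 58.7) among young and 28.6 CPM (24.6 to 33.0) among aged cells, giving a ratio of 0.563 (0.456 to 0.694). It was at least 1.5-fold lower in 9 of 9 settings. Nfkb1 stood at 94.9 and 68.1 CPM with a ratio of 0.717 (0.621 to 0.828), Nfkb2 at a ratio of 0.721 (0.533 to 0.979) and Tnfaip2 at 0.844 (0.735 to 0.971). In thinned cells, where few UMIs are left, the monocyte ratios of Nfkb2 and Tnfaip2 were 1.55 and 1.46, on the other side of 1. Nfkbia lay on the other side of 1, at 338 and 391 CPM, with a ratio of 1.16 (1.08 to 1.24). Zc3h12a had 40 and 63 UMIs and a ratio of 0.891 (0.590 to 1.36). Tnf, Tnfaip3 and Ptgs2 had 12 and 13, 18 and 11, and 10 and 7 UMIs, under the minimum. The Tnfaip3 ratio of 0.346 (0.148 to 0.773) was the only one of these 3 whose interval left out 1, and in thinned cells it was 1.16.

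Of the 7 genes with at least 50 monocyte UMIs, 1 was at least 1.5-fold lower and 1 higher, and 5 lay between. Among all 7780 monocyte genes of that depth, 8.68% were lower and 5.9% higher. The median log2 ratio was -0.24 over the 7 genes and 0.01 over all genes.

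Markers of other cell types differed between the libraries as well. The summed level of 5 erythroid markers was 999 CPM in young and 271 CPM in aged neutrophils and that of 5 NK markers 44.9 and 12.4 CPM. Transcripts of 5 genes of immature neutrophils summed to 1091 CPM in young and 1722 CPM in aged neutrophils. The same 5 genes summed to 3936 CPM in young and 3755 CPM in aged monocytes, so this sum is not particular to neutrophils. In monocytes the 7 neutrophil markers stood at 23514 and 33732 CPM, 5 dendritic cell markers at 999 and 1689 CPM, 5 erythroid markers at 728 and 475 CPM and 5 NK markers at 36.2 and 11.2 CPM. Their part in the ratios above was not tested.

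The populations held these genes at different levels in both libraries. Neutrophils had more Tnfaip2 than monocytes, 3.65-fold (3.20 to 4.16) among young and 2.70-fold (2.43 to 3.0) among aged cells, and more Nfkbiz, 1.86-fold (1.51 to 2.29) and 2.08-fold (1.73 to 2.50). Nfkbia was 1.37-fold (1.26 to 1.5) and 1.26-fold (1.20 to 1.33) higher in neutrophils. These 3 genes were also higher in neutrophils with TMM scaling, where Nfkbia reached 2.74-fold and 3.16-fold.

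Sod2 had the opposite order and was 5.26-fold higher in young and 13.9-fold higher in aged monocytes than in neutrophils, or 2.64-fold and 5.54-fold with TMM scaling. Nfkb1 was 2.40-fold (1.88 to 3.11) and 2.29-fold (1.91 to 2.76) higher in monocytes by CPM, but with TMM scaling 1.21-fold in the young library and 0.915 of the neutrophil level in the aged one. The order of monocytes and neutrophils for Nfkb1 therefore depends on the scaling.

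Conventional dendritic cells, of which 52 young and 104 aged were kept, had the highest Nfkb1 level of the young library, 272 CPM (222 to 329), and 249 CPM (214 to 288) in the aged one. In the aged library their interval overlapped that of the cells labelled Mast cell, at 230 CPM (144 to 348). Those 42 cells were found in the aged library only, held UMIs of all 5 mast cell and basophil markers, and had the highest Nfkbia level of the aged populations, 721 CPM (561 to 913), with 136 CPM (72.4 to 232) of Nfkbiz. Among populations of at least 20 cells, NK cells had the lowest Nfkbia level in both libraries, 227 CPM (157 to 317) and 201 CPM (133 to 290). Ptgs2 had no UMI in dendritic, NK or B cells of either library, and Tnf had at most 1. The cells labelled Mast cell held 2 Ptgs2 UMIs, both in 1 cell, at 20.9 CPM (2.53 to 75.5). For Ptgs2 a count of 0 allows (at 3 counts) between 4.17 CPM in aged dendritic cells and 44.7 CPM in young B cells, and only the limit in aged dendritic cells is below the aged neutrophil level.

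**Figure D3:**
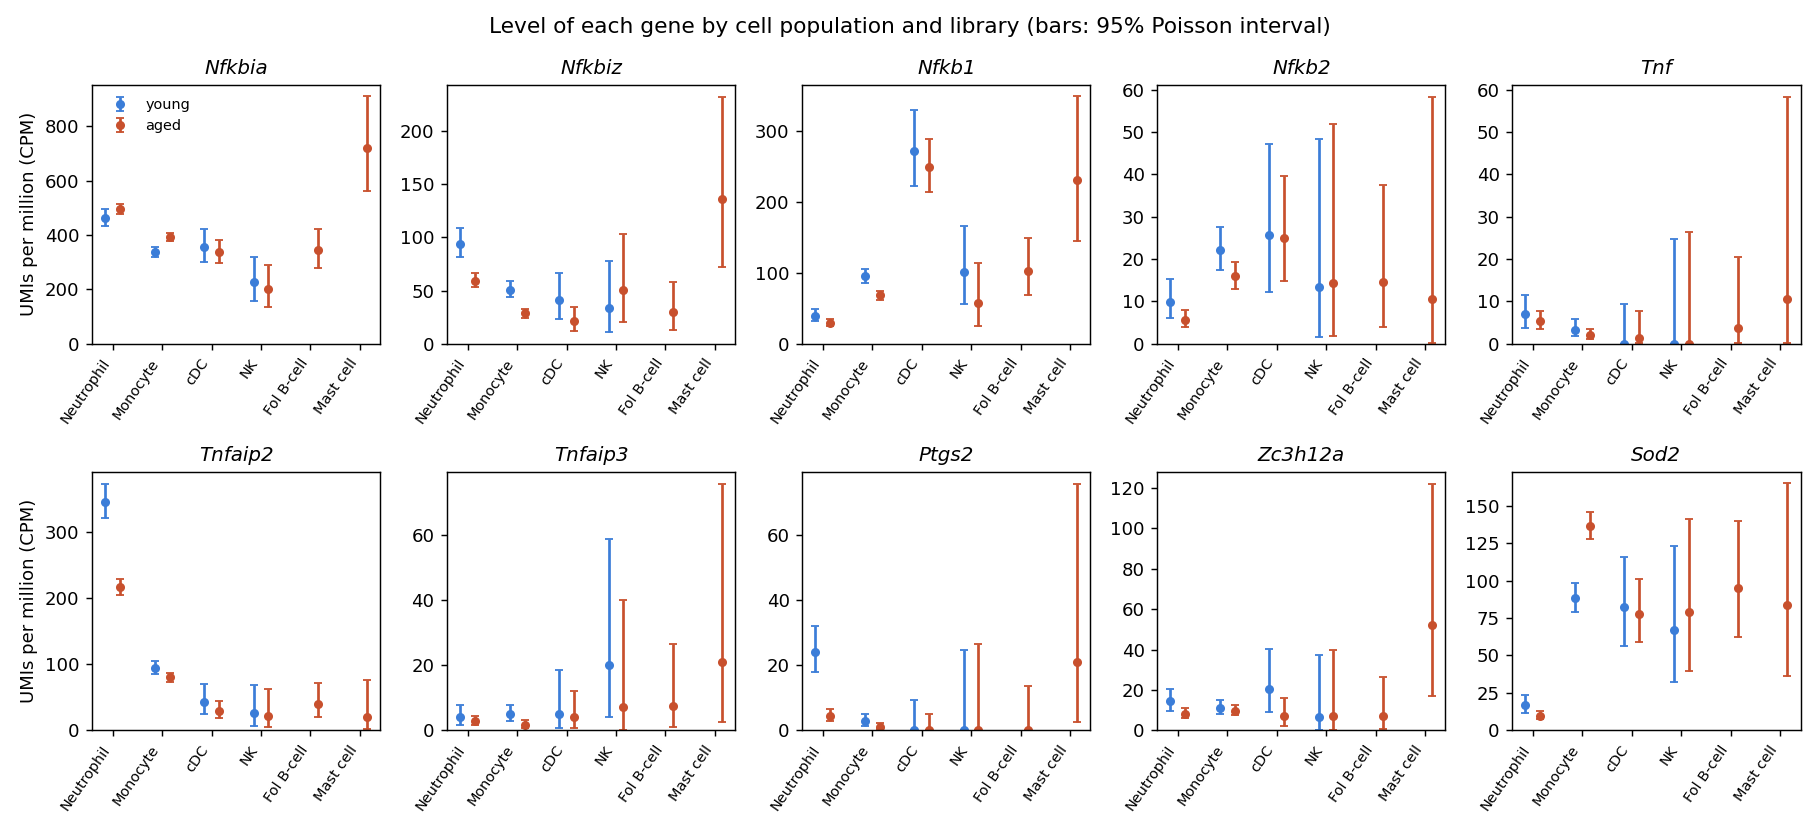
CPM level of each of the 10 genes by cell population for the young (blue) and aged (red) library, on a linear axis that starts at 0, with 95% Poisson intervals, for populations of at least 20 cells. Tnfaip2 is high in neutrophils, Ptgs2 in those of the young library, Nfkb1 in dendritic cells, and Sod2 is lowest in neutrophils. The aged Mast cell point of Ptgs2 rests on 2 UMIs in 1 cell.

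Monocytes were divided by the sum of 7 classical and 8 nonclassical marker genes, a range along a score and not a cell type. Nonclassical-leaning cells were 35 of 540 young (6.48%) and 28 of 932 aged monocytes (3.0%), of which 6 young and 6 aged lay within 2 UMIs of the cut. In both libraries they held more Nfkbia than classical-leaning cells, 647 against 322 CPM in the young, a ratio of 2.01 (1.63 to 2.46), and 810 against 385 CPM in the aged, a ratio of 2.1 (1.65 to 2.65). Nfkb1 was 1.87-fold (1.22 to 2.75) and 2.47-fold (1.37 to 4.12) higher. With TMM scaling these ratios were 1.70 and 1.65 for Nfkbia and 1.58 and 1.93 for Nfkb1. Nonclassical-leaning cells were shallower, with medians of 3201 and 3113.5 UMIs against 6806 and 6483. Within classical-leaning cells alone the aged over young ratio was 1.52 (1.33 to 1.74) for Sod2 and 0.579 (0.467 to 0.719) for Nfkbiz, close to the values over all monocytes.

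The number of the 10 genes with a UMI in a cell moves with depth. Without thinning the median was 1 in young and 1 in aged neutrophils, and 2 in young and 3 in aged monocytes, whose cells are deeper. After thinning to 500 UMIs, 62.8% of young and 65.4% of aged neutrophils and 73.3% of young and 68.2% of aged monocytes held none of them. UMIs of 2 of the genes were then held by 6.35% (5.01% to 7.94%) of neutrophils in the young library and 3.69% (3.0% to 4.48%) in the aged one, and by 2.78% (1.56% to 4.54%) and 3.86% (2.72% to 5.31%) of monocytes. In thinned young neutrophils Tnfaip2 was found in 18.4% (13.4% to 24.3%) of cells with an Nfkbia UMI and in 15.7% (13.4% to 18.3%) of those without, and in aged neutrophils in 10.6% and 10.7%. Nfkbiz was found in 4.72% and 4.78% of thinned young neutrophils with and without Nfkbia. Tnf was found in 5 of 577 aged neutrophils with an Nfkbia UMI, 0.867% (0.282% to 2.01%), and in 4 of 2051 without, 0.195% (0.0532% to 0.499%), intervals that overlap. No test of dependence was made.

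**Figure D4:**
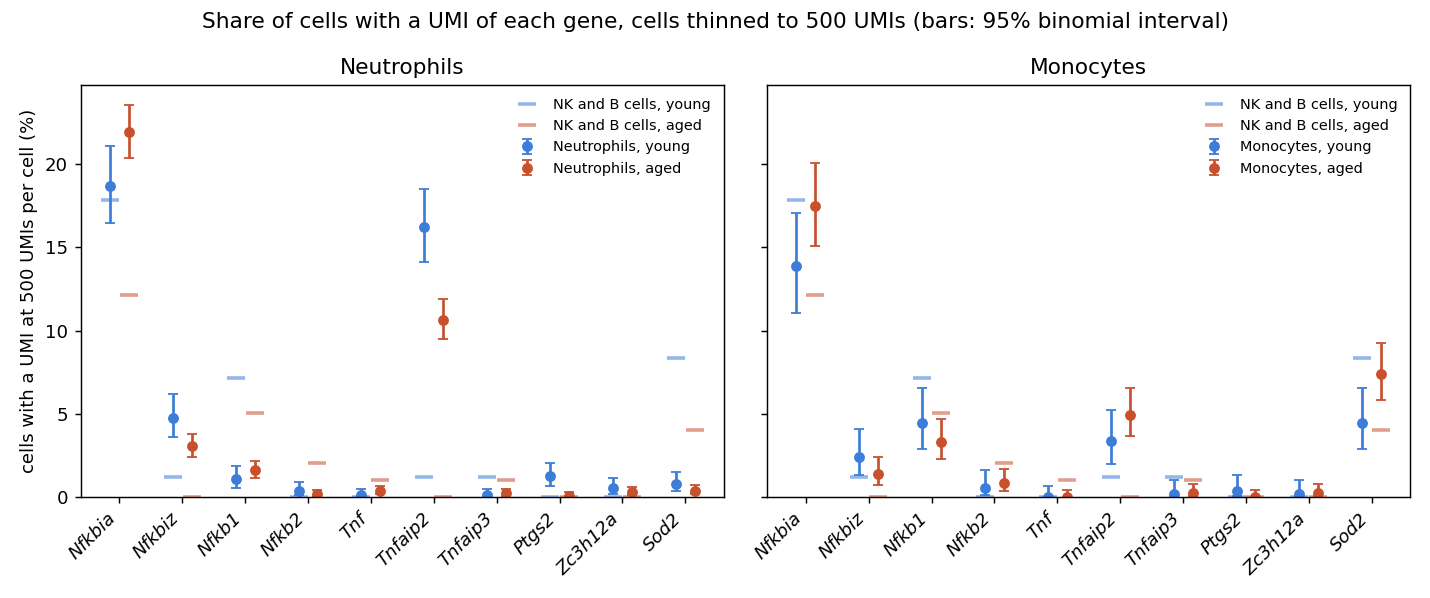
Share of cells with at least 1 UMI of each gene, in percent, after thinning every cell to 500 UMIs, in neutrophils (left) and monocytes (right) of the young (blue) and aged (red) library, with 95% binomial intervals. Short dashes give NK and B cells, which make Nfkbia, Nfkb1 and Sod2 themselves. Tnfaip2 is at 16.2% of young and 10.7% of aged neutrophils, and Ptgs2 at 1.24% and 0.0761%.

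Across 10 profiles of populations and libraries with at least 20 cells each, the genes with the most similar log2 levels to Nfkbia were Ier3 (r = 0.974), Ccl6 (0.970) and Cmpk2 (0.964), out of 8826 genes compared. For Tnfaip2 they were Hnmt (0.985), Acpp (0.976) and Lonrf1 (0.974), and for Ptgs2 they were 6430531B16Rik (0.924), Gm15417 (0.924) and Mgll (0.922). For Sod2 they were Mrpl35 (0.987) and Mrpl51 (0.985), which encode mitochondrial ribosomal proteins, and Ndufs7 (0.987), a subunit of respiratory complex I. For Nfkb1 they were Ddit4 (0.955), Erap1 (0.945) and Vamp2 (0.938). The profiles share their libraries, so these values are descriptions.

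The other genes of the pathway are counted on the same CPM scale, on which 20.3% of all neutrophil genes were lower and 3.81% higher in the aged library, and 8.68% and 5.9% of all monocyte genes. With TMM scaling 6.97% of all neutrophil genes were lower and 10.4% higher. Receptors and adaptors of the pathway had 0 of 13 measured genes at least 1.5-fold lower in aged neutrophils and 2 higher, Irak3 and the co-receptor for lipopolysaccharide Cd14, at 265 and 479 CPM, for a ratio of 1.81 (1.64 to 1.98). Tnfrsf1a and Il1rap, also abundant, stood at 0.806 (0.719 to 0.906) and 0.936 (0.825 to 1.06). Kinases of the IkappaB kinase arm had 1 lower and 1 higher of 7, Tab2 at 0.613 and Map3k8 at 1.53, and with TMM scaling 0 lower and 1 higher. In monocytes 0 of 18 receptors and adaptors and 1 of 10 kinases, Map3k7, were past 1.5-fold. Of the other subunits and inhibitors, 2 of 6 were lower in aged neutrophils and the same genes, Relb and Nfkbid, 2 of 7 in monocytes. With TMM scaling 0 of 6 were lower in neutrophils. The neutrophil ratio was 0.657 (0.358 to 1.24) for Relb and 0.570 (0.370 to 0.886) for Nfkbid. Among ubiquitin editors 1 of 10, Otud7b, was higher in neutrophils at 2.05 (1.00 to 4.75).

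Among other target genes 6 of 17 were at least 1.5-fold lower in aged neutrophils and 0 higher. With TMM scaling 2, Il1b and Ccrl2, were lower and 3 higher, against 6.97% and 10.4% of all genes. The interleukin-1 beta gene Il1b stood at 1932 and 998 CPM, for a ratio of 0.517 (0.496 to 0.538), and the chemokine receptor-like gene Ccrl2 at 0.335 (0.212 to 0.530). Not all abundant targets were lower: Cxcl2, a neutrophil-attracting chemokine, stood at 1598 and 1724 CPM and Clec4e at 302 and 311 CPM. In monocytes, where 8.68% of all genes were lower and 5.9% higher, 1 of 21 was lower and 3 were higher, among them the chemokine gene Ccl4 at 2.02 (1.33 to 3.13).

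Among genes that act on transcripts, 3 of 8 were lower in aged neutrophils, with Zfp36, which encodes tristetraprolin, at 0.611 (0.553 to 0.675) and Zfp36l2 at 0.660 (0.590 to 0.739). The related Zfp36l1, also abundant, stood at 0.993 (0.861 to 1.15). With TMM scaling 0 of 8 were lower. In monocytes 2 of 8, Cnot1 and Pan3, were lower. The list of the prostaglandin route around Ptgs2 also held Alox5 and Alox5ap, which belong to the lipoxygenase route. In neutrophils 0 of its 6 measured genes were past 1.5-fold. In monocytes 2 of 9 were lower and 1 was higher. Of these, Hpgd, which encodes the prostaglandin-degrading dehydrogenase, stood at 0.436 (0.322 to 0.589), and the prostaglandin E receptor genes Ptger4 and Ptger2 at 0.552 (0.348 to 0.875) and 1.70 (1.02 to 2.93). Beside Sod2, genes of superoxide and peroxide removal had 2 lower and 1 higher of 9 in neutrophils (0 and 1 with TMM scaling) and 0 lower and 1 higher of 11 in monocytes.

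Many of the AP-1 and immediate early genes are induced by the same signals and also by cell handling. This list had 4 of 9 lower and 0 higher in aged neutrophils. With TMM scaling 3 were lower and 1, Klf2, was higher, against 6.97% and 10.4% of all genes. Fos stood at 1266 and 577 CPM, for a ratio of 0.456 (0.433 to 0.480), and Junb at 0.476 (0.454 to 0.499). Dusp1 and Klf2, also abundant, stood at 0.586 (0.564 to 0.608) and 1.26 (1.20 to 1.33). In monocytes 3 of 12 were lower, against 8.68% of all genes, among them Fosb at 0.354 (0.266 to 0.467) and Egr1 at 0.473 (0.355 to 0.630), while Fos stood at 0.885 (0.851 to 0.921). The part of cell handling in the levels of Ptgs2, Nfkbiz and the other targets was not tested.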

How the data were processed

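The deposited table holds raw UMI counts per gene and cell with the authors' population label for each cell. Cell Ranger 2.1.1 and mm10 are listed in the submitters' processing notes, and the authors' cell filters were not given in the sources used here. Scrublet in scanpy 1.11.5 called only 4 cells in each library by its own threshold, so the top-scoring cells were removed at a rate proportional to the number of cells, 27 (1.46%) young and 124 (3.14%) aged. Counts were summed per population and library. Sums have exact Poisson intervals, ratios exact conditional binomial intervals and shares Clopper-Pearson intervals, at 95%. With 1 library per age no test was made. Cells were thinned to 500 UMIs without replacement. Profiles were compared as log2(CPM + 10). TMM factors came from edgeR 4.0.16. The ratio script was tested on simulated data. Named were all 10 genes, of each other list up to 3 genes with most UMIs (not always all 3) and every gene at least 2-fold apart. Other genes named from the lists, Irak3, Map3k7, Relb, Nfkbid, Cnot1, Pan3, Ptger2 and Ptger4, were chosen after their values were seen. Members and lists were chosen with earlier results of these data known. Alternatives are given in the closing section.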

Additional observations from a re-analysis of the deposited data

Results flagged for a closer look

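Sod2 differed between the libraries in opposite directions in the main populations on the CPM scale. Its ratio of aged over young was 0.587 in neutrophils and 1.55 in monocytes, and the log2 ratio in monocytes minus that in neutrophils was 1.40. The difference was not tested, since each age has 1 library. In neutrophils it rests on 34 young and 54 aged UMIs, and with TMM scaling the neutrophil ratio was 0.729 (0.466 to 1.15), an interval that includes 1, so the opposite direction is not established under that scaling.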

How the results depend on the processing

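No paired analysis was possible because each age has 1 library, and for the same reason no replicate could be left out. The 6 of 8 neutrophil genes at least 1.5-fold lower became 1 with TMM scaling, 1 with ratios centred on the median of all genes, 3 without S100a8, S100a9 and Retnlg in the total, and 2 (of 4 measured) with genes from 200 UMIs. The share of all neutrophil genes that were lower was 20.3% as reported and 6.97%, 8.49%, 10% and 16.3% in these settings. In cells thinned to 500 UMIs 1 neutrophil gene, Nfkb1, was higher, against 9.46% of all neutrophil genes. In monocytes 0 genes were at least 1.5-fold higher without ribosomal protein and mitochondrial genes in the total and 2 in thinned cells, and 3 were lower with genes from 20 UMIs. Of all monocyte genes 4.32% and 23.7% were higher in the first 2 of these settings, and 11.2% were lower with genes from 20 UMIs. The monocyte median log2 ratio reversed to 0.35 in thinned cells, and that of Tnfaip3 in monocytes to 0.21, where few UMIs are left; the monocyte ratios of Nfkb2 and Tnfaip2 also crossed 1, and Tnf and Ptgs2 in monocytes had none there. The log2 ratio of monocytes over neutrophils for Nfkb1 in the aged library reversed to -0.13 with TMM scaling. TMM moved neutrophil log2 ratios by 0.31. The cause of these moves was not tested. Leaving doublets in, taking cells from the same lowest depth and leaving out the cells with most UMIs changed no count by more than 1.5 times. Depth limits Tnf and Tnfaip3 in both populations and Ptgs2 in monocytes.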
